A study of Mus musculus with 2 samples.

Results

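Dividing, tumour-like cells without Ptprc, the common leukocyte surface phosphatase CD45, were picked out of single-cell libraries of mouse tumours. A cell belonged to the set when it had at least 5000 UMIs (unique molecular identifiers, each counting 1 captured transcript), 0 UMIs of Ptprc, at most 1 UMI each of Tyrobp (a myeloid and NK cell adaptor) and Pecam1 (endothelium), at most 2 UMIs in sum of the matrix genes Aspn, Dpt, Ogn and Postn, and 0 UMIs of Mfap4. It also needed at least 15 UMIs in sum of Cenpf, Top2a, Ube2c and Tpx2, which are made in late S phase, G2 and mitosis. The rule found 115 cells in the DFMO library and 409 in the water library, 524 of the 10720 cells in all. The cells were thus selected on the counts of these 4 genes and of the gate genes, and the height of the 4 here is a description and not a result.

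The libraries came from C57BL/6 mice carrying back tumours of MC38, a mouse colon carcinoma line. The DFMO group was gavaged with DFMO from day 7 after implantation for 14 days, and the water group was gavaged with water over the same days. Tumours were digested, a Ficoll gradient was used to obtain immune cells, and the cells of 4 mice per group were pooled into 1 library of 5' single-cell RNA each, so tumour cells are present only as far as they passed that step. The age and sex of the mice are not given in the labels. Since a group was a single library of pooled cells, the spread between mice could not be measured. No p-value was computed, and every interval is a 95% interval of counting error only.

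DFMO, difluoromethylornithine, is an irreversible inhibitor of ornithine decarboxylase (Odc1), which turns ornithine into putrescine, the first of the polyamines. Ornithine is also made in the urea cycle, where arginase cuts arginine into ornithine and urea, and the study asked how the urea cycle was altered under DFMO. Polyamines bind nucleic acids and are needed for growth, and the enzymes that make them are usually high in proliferating cells. A cell that divides passes through waves of transcription. E2F factors switch on replication genes and histones around S phase. A second wave, the cyclins, kinases and spindle proteins of G2 and mitosis, is governed by the DREAM complex, B-Myb and FoxM1. Many promoters of the second wave hold a CHR element, which DREAM binds, and CCAAT boxes, which NF-Y binds.

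Promoter sequence of 5 genes that the results below turn on is printed here to show such elements beside the data. Each run covers the 130 bases before the RefSeq start of the gene on GRCm38.p6, 5′ to 3′ on the gene's strand, and capitals mark a motif read on either strand. In Ube2c (chr2:164769799-164769928, plus strand) and Top2a (chr11:99024190-99024319, minus strand), whose products drive mitotic protein destruction and untangle DNA, they mark the CHR letters TTTGAA or TTCAAA and the box CCAAT or ATTGG.
Ube2c: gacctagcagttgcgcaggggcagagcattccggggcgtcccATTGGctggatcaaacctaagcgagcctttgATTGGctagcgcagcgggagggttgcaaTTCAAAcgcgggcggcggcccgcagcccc
Top2a: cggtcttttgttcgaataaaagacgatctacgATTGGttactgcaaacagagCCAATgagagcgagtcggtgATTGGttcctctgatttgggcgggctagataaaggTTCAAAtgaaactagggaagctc
In the interferon-induced genes Rsad2 (viperin, chr12:26456453-26456582, minus strand) and Tgtp1 (a GTPase, chr11:48992247-48992376, minus strand), they mark the letters of the interferon-stimulated response element, GAAA, any 2 bases and GAAA, or TTTC, any 2 bases and TTTC.
Rsad2: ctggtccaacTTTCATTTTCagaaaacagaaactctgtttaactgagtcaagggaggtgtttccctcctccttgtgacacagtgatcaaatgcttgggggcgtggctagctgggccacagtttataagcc
Tgtp1: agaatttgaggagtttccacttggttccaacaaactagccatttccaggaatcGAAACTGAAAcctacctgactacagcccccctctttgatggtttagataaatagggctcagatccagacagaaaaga
In P4ha2 (a collagen prolyl hydroxylase induced in hypoxia, chr11:54100794-54100923, plus strand), they mark the core ACGTG or CACGT that hypoxia-inducible factors bind.
P4ha2: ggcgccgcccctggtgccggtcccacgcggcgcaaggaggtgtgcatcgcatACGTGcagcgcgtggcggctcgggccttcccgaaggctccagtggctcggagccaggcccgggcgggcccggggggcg

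In these runs no motif overlapped another. The CHR letters lay 29 bases before the start in Ube2c and 23 bases before it in Top2a, with CCAAT boxes farther out at 57 and 88 bases in Ube2c and at 58, 78 and 98 bases in Top2a. Over the 250 bases before the start, 45 of the 61 mitotic and spindle genes with a RefSeq promoter (73.8%) held a CCAAT box, 19 (31.1%) held CHR letters and 17 (27.9%) held both. Of all 27025 genes with a promoter, 37.5% held a CCAAT box, 18.3% CHR letters and 6.45% both. The response element letters occurred in 17 of 27 interferon genes (63.0%), against 3.46% of all genes. The ACGTG core occurred in 13 of 18 hypoxia genes (72.2%), against 18.5% of all genes. These are matches of letters and show no binding.

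The 10720 cells held 23588037 UMIs in the DFMO library and 59748244 in the water library, with medians of 2232 and 6475 UMIs per cell. The dividing cells lay far above this, with a median of 22813 UMIs and 4963 genes per cell under DFMO and of 21963 UMIs and 4708 genes under water, so their depth was alike. They summed to 2519312 and 8660601 UMIs. Values below are CPM, UMIs per 1000000 UMIs of such a sum, and a gene without a UMI lies under 1.19 CPM in DFMO dividing cells and under 0.346 CPM in water dividing cells, the level of 3 UMIs. The libraries shared 37 cell barcodes, carried by 1 DFMO and 3 water dividing cells, and no barcode was a dividing cell in both. None of the dividing cells was called a doublet, although the caller marked only 1.14% of DFMO and 1.55% of water cells, so doublets may remain.

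The label tumour-like was checked against marker genes. Vim, the mesenchymal intermediate filament, was high in dividing cells, with 7061 CPM under DFMO and 7216 CPM under water. The 9 fibroblast markers summed to 1809 and 1790 CPM, mostly from the collagen gene Col3a1 (945 CPM under DFMO and 828 under water) and the proteoglycan gene Dcn (825 and 922 CPM). Of 13 epithelial markers, among them Epcam, Cdh1 and the keratins, 11 were in the matrix, and they summed to 1.19 CPM under DFMO and 8.43 CPM under water. Epithelial markers thus gave the label no support. The cells are called dividing Ptprc-negative cells here. The 4 Y-linked genes Ddx3y, Eif2s3y, Kdm5d and Uty summed to 2.78 CPM under DFMO and 0.693 CPM under water, against 128 and 85.7 CPM in dividing Ptprc-positive cells of the same libraries. They were also low in gated cells with at most 2 UMIs of the rule's genes, at 3.93 and 1.52 CPM. Ptprc-negative cells with at least 10 UMIs of the matrix genes had 0.770 and 0.947 CPM. The low level was thus not particular to the dividing cells.

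Some transcripts of other lineages were present. The pan-leukocyte markers Laptm5, Coro1a and Cd52 summed to 65.1 CPM in DFMO and 29.7 CPM in water dividing cells, with Ptprc at 0 by the rule, against 7212 and 6231 CPM for the 4 markers in dividing Ptprc-positive cells. Markers of B cells summed to 41.7 CPM under DFMO and 0.115 CPM under water, and those of dendritic cells to 251 and 37.1 CPM. Other lineages were level or lower under DFMO. Markers of T cells summed to 13.5 and 26.7 CPM, and those of macrophages and monocytes to 7.54 and 12.4 CPM. NK cell markers summed to 13.1 and 12.2 CPM, pericyte markers to 56.8 and 50.1 CPM and erythroid markers to 0.794 and 112 CPM. No UMI of 31 leukocyte markers was found in 72 DFMO cells (62.6%) and 283 water cells (69.2%). At least 20 leukocyte or erythroid UMIs were found in 6 DFMO and 11 water cells, which are called cells with other-lineage RNA below, and lists were recomputed without them.

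Dividing cells made up much the same part of the gated Ptprc-negative cells in both libraries. They were 115 of 422 DFMO cells (27.3%, exact Clopper-Pearson interval 23.1 to 31.8%) and 409 of 1555 water cells (26.3%, 24.1 to 28.6%). The count of 4 transcripts depends on depth. Among cells of 20000 UMIs or more, the share was 36.1% under DFMO (73 of 202 cells) and 42.0% under water (242 of 576). Among cells of 5000 up to 10000 UMIs it was 15% (12 of 80) and 10.1% (34 of 335). When every gated cell was thinned to 5000 UMIs, 28 of 422 DFMO cells (6.64%, 4.45 to 9.45%) and 110 of 1555 water cells (7.07%, 5.85 to 8.46%) still reached 15. Mki67, the proliferation antigen Ki-67 and no gene of the rule, had a thinned UMI in 22.7% of gated DFMO cells (18.8 to 27.1%) and 21.1% of gated water cells (19.1 to 23.2%). These 28 and 110 cells served as a stricter choice of dividing cells below. In each of these measures the intervals of the libraries overlapped. Of all cells the shares were 2.57% under DFMO and 6.55% under water, but of cells with at least 5000 UMIs they were 10.1% of 1141 and 11.0% of 3734.

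**Figure D1:**
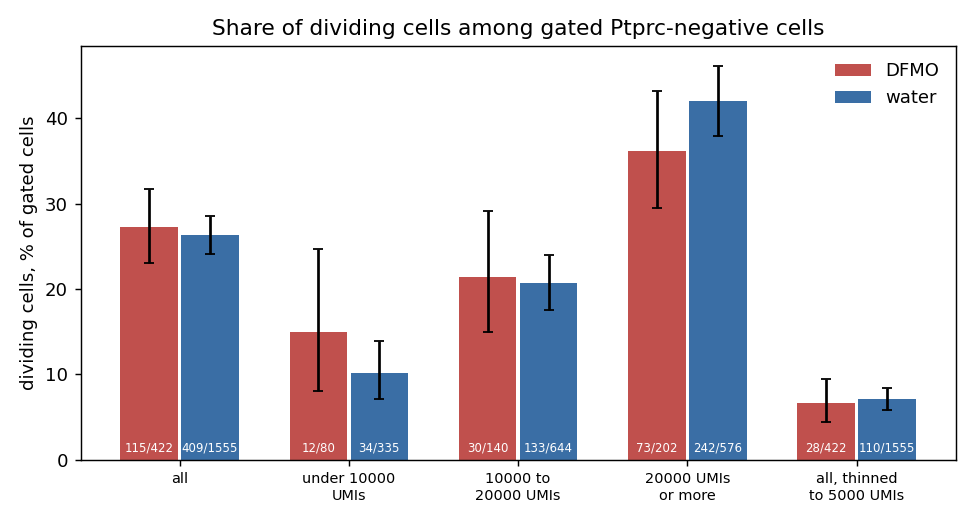
Percentage of gated Ptprc-negative cells that were dividing, for all gated cells, for 3 ranges of UMIs per cell and after thinning to 5000 UMIs. Red bars are DFMO and blue bars water, lines are exact 95% binomial intervals, and the fractions are cell counts; the DFMO and water intervals overlap in every pair, and the share is higher in deeper cells.

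The sum of the rule's genes had a median of 31 UMIs in DFMO cells (range 15 to 219) and of 35 UMIs in water cells (15 to 248). Cells just inside the threshold, with 15 to 17 UMIs, numbered 18 under DFMO and 50 under water. Just outside, with 12 to 14 UMIs, were 20 and 67 cells. Median depth was 23654 UMIs under DFMO and 16250 under water just inside, against 14541.5 and 15581 just outside. The rule counts raw UMIs, so at a like sum a deeper cell keeps fewer after thinning. After thinning, the 26 mitotic regulators had medians of 10 and 17 UMIs just inside, against 13.5 and 13 just outside, so the threshold cuts a range and not a gap. Ube2c, the ubiquitin-conjugating enzyme of the anaphase-promoting complex, was the most abundant of the 4, at 911 CPM under DFMO and 1178 CPM under water, and was seen in 89.6% and 95.6% of dividing cells thinned to 5000 UMIs. Top2a, topoisomerase II, was at 512 and 421 CPM. Tpx2, which activates Aurora A on the spindle, was at 340 and 271 CPM, and Cenpf, a kinetochore protein, at 314 and 264 CPM. Ube2c was lower under DFMO and the other 3 were higher, which is a description, since the sum of the 4 chose the cells.

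Dividing cells were next set beside 205 DFMO and 780 water cells that passed the same gates with at most 2 UMIs of the rule's genes, called non-dividing cells. These had medians of 17695 and 14685.5 UMIs. Their makeup differed too. Fibroblast markers summed to 3901 CPM under DFMO and 3805 CPM under water, against 1809 and 1790 CPM in dividing cells. T cell markers summed to 140 and 47.7 CPM, against 13.5 and 26.7 CPM. Epithelial markers summed to 3.93 and 58.7 CPM, against 1.19 and 8.43 CPM. Pericyte, endothelial and erythroid markers were lower than in dividing cells in both libraries. The part of these differences in the ratios below was not tested. The comparison shares its source with the rule, so it describes what came with the chosen genes and carries no test. Of 9852 genes with at least 100 UMIs, 450 (4.57%) were at least 2-fold higher in dividing cells in both libraries, and 138 (1.4%) were at least 2-fold lower in both.

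Genes of mitosis stood highest. Of 26 mitotic regulators 25 were 2-fold higher in both libraries, and of 43 spindle and kinetochore genes 42 were, with median log2 ratios over non-dividing cells of 5.41 under DFMO and 4.74 under water for the spindle list. Cells chosen after thinning gave 4.05 and 3.83, and all gated cells with a sum under 15 as the comparison gave 3.14 and 2.84. In the choice after thinning the non-dividing cells were rechosen too, as gated cells with at most 2 thinned UMIs of the rule's genes. They then took in cells with larger raw sums, some of them from the dividing set, so both sides of the ratio changed. The 10 genes that stood highest, apart from the rule's own, were Kif2c, Aspm, Mxd3, Nusap1, Sgo2a, Pimreg, Ccna2, Aurka, Ckap2l and Plk1. Plk1, the polo kinase of mitotic entry, had 137 CPM in DFMO and 103 CPM in water dividing cells, against 1.4 and 1.86 CPM in non-dividing cells. Ccna2, cyclin A, was at 195 and 180 CPM, against 2.52 and 2.62 CPM. Aspm, a spindle pole protein, was at 87.3 and 59.4 CPM, against no UMI in DFMO and 0.675 CPM in water non-dividing cells. Kif2c, a kinesin that takes down microtubules, was at 57.9 and 44.7 CPM, against 0.561 and 0.422 CPM. In cells thinned to 5000 UMIs, a UMI of Mki67 was present in 56.5% of DFMO and 53.1% of water dividing cells, against 1.46% and 2.44% of non-dividing cells.

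Genes of S phase were also higher, by less. Of 52 replication genes 39 were 2-fold higher in both libraries and none 2-fold lower. The median log2 ratio was 1.80 under DFMO and 1.52 under water. It was only 0.46 and 0.54 with both sides chosen after thinning, and 1.01 and 0.74 against all gated cells with a sum under 15. Mcm5, a subunit of the replicative helicase, was at 63.9 and 59.9 CPM in dividing cells, against 13.2 and 14.4 CPM in non-dividing cells. Pcna, the sliding clamp, was at 161 and 139 CPM, against 65.9 and 71.9 CPM. Of 18 replication-dependent histone genes 14 were 2-fold higher, with medians of 2.84 under DFMO and 2.11 under water. DNA repair genes were 2-fold higher in 15 of 21 cases, and nucleotide synthesis genes in 6 of 33. The nucleotide synthesis medians were 0.59 under DFMO and 0.48 under water in all dividing cells. With both sides chosen after thinning they turned to -0.13 and -0.054.

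Cells within the set differed in which of these programmes they carried. After thinning, a dividing cell had a median of 17 replication UMIs under DFMO (quartiles 11 and 24) and of 15 under water (11 and 21). Ordered by their mitotic and spindle UMIs and split into 4 classes of near-equal size, DFMO cells had median replication UMIs of 22.5, 18, 16.5 and 12 from the lowest to the highest class. Water cells had 20, 17, 14 and 12. Across cells, Spearman's rho of mitotic against replication UMIs was -0.27 over 115 DFMO and -0.32 over 409 water cells, a description in which the cells share a library and a fixed total. Histone UMIs went with replication UMIs, at rho 0.25 and 0.26. The sum of the rule's genes was followed most closely, of 3642 genes, by the importin gene Kpna2, with Pearson's r of 0.48 in both libraries, and then by Cdk1, H2afx, Fzr1, Prc1, Nusap1, Jpt1, Cks2, Cdc25b and Ubald2, the last at 0.32 under DFMO and 0.37 under water.

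**Figure D2:**
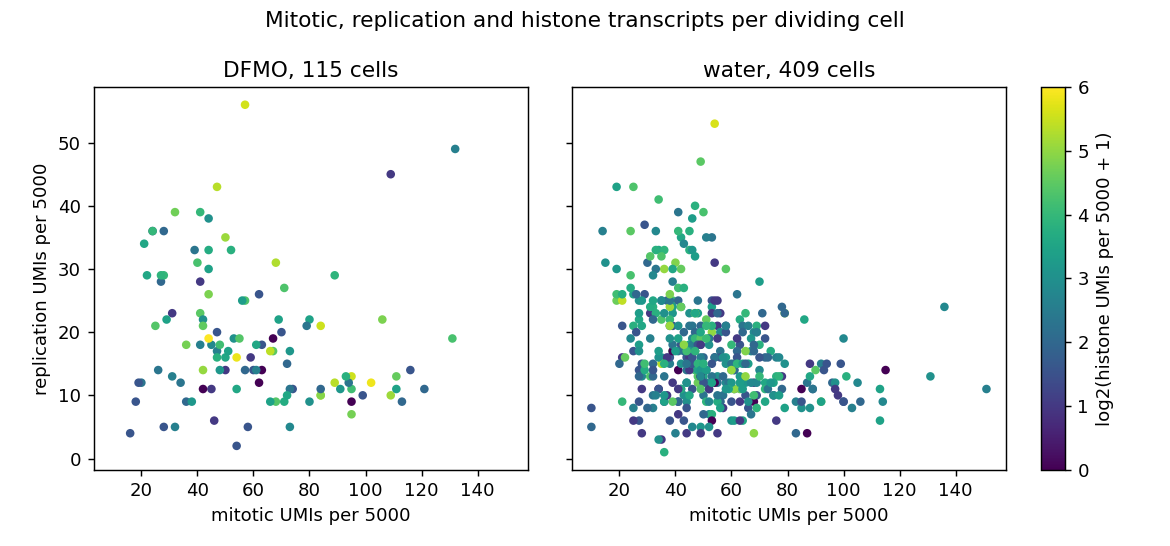
Each point is 1 dividing cell thinned to 5000 UMIs, with UMIs of the mitotic and spindle lists on the x axis, replication UMIs on the y axis and histone UMIs as colour on a log2 scale. The left panel shows 115 DFMO cells and the right panel 409 water cells. In both, cells with more mitotic UMIs tend to have fewer replication UMIs, a weak trend at rho -0.27 and -0.32.

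Genes induced by low oxygen were lower in dividing cells than in non-dividing cells of the same gate. The hypoxia list had a median log2 ratio of -0.90 under DFMO and -0.91 under water, beside 0.04 and -0.03 over all genes, and 6 of 19 genes were 2-fold lower in both libraries. Ero1l, an oxidase of the endoplasmic reticulum, had 389 CPM in DFMO and 367 CPM in water dividing cells, against 1178 and 1053 CPM in non-dividing cells. P4ha2 was at 72.6 and 71.7 CPM, against 201 and 207 CPM. Ndrg1, a stress-induced gene, was at 166 and 121 CPM, against 432 and 395 CPM. Car9, the carbonic anhydrase often used to mark hypoxic tumour areas, was at 9.92 and 21.6 CPM, against 53.3 and 57.1 CPM. All of these were lower in dividing cells in both libraries.

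Glycolysis went the same way. All 13 genes of the list were lower in dividing cells in both libraries, though only 1 by 2-fold, with medians of -0.56 and -0.63. Aldoa, aldolase, was at 2153 and 2458 CPM in dividing cells, against 4539 and 4843 CPM in non-dividing cells. Hypoxia transcripts were spread unevenly, since the thinned median per dividing cell was 10 UMIs in both libraries while 1 cell in 10 had more than 40.8 UMIs under DFMO and 46.2 UMIs under water. In non-dividing cells the medians were 19 and 24 UMIs. Among the 10 genes that stood lowest were also Dusp1 (28.6 and 52.7 CPM, against 117 and 153 CPM) and Ier3 (107 and 194 CPM, against 326 and 460 CPM), both early response genes.

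The polyamine and arginine lists did not separate dividing from non-dividing cells. The polyamine list had medians of 0.09 under DFMO and 0.10 under water, with 0 of 22 genes 2-fold apart in the same direction in both libraries. Its medians were -0.26 and -0.21 with both sides chosen after thinning. Odc1 (chr12:17544794-17551505), the target of DFMO, had 200 CPM in DFMO and 192 CPM in water dividing cells, against 179 and 165 CPM in non-dividing cells. Srm, spermidine synthase, was at 388 and 446 CPM, against 327 and 378 CPM. Of the 17 arginine and urea cycle genes, with medians of 0.12 and 0.10, the 1 gene 2-fold lower in both libraries was Nos2, the inducible nitric oxide synthase, at 15.9 and 8.89 CPM against 65.9 and 46.0 CPM.

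Set beside dividing Ptprc-positive cells (at least 5000 UMIs, at least 1 UMI of Ptprc and the same sum of 15; 78 DFMO and 133 water cells), the dividing Ptprc-negative cells differed widely, 15.7% of 9089 genes being at least 2-fold higher in both libraries and 10.3% at least 2-fold lower. Of 17 ATF4 targets, the amino acid stress genes, 14 were 2-fold higher in both, and so were 13 of 19 hypoxia genes, 11 of 22 ribosome assembly genes and 8 of 14 mesenchymal genes. Phgdh, the first enzyme of serine synthesis, was at 1113 CPM under DFMO and 782 CPM under water, against 361 and 247 CPM in Ptprc-positive cells. The lysosomal protease gene Ctsl was at 1462 and 1451 CPM, against 203 and 199 CPM. Sox9, a transcription factor of intestinal crypts and cartilage, was at 196 and 187 CPM, against 13.5 and 27.2 CPM. In non-dividing Ptprc-negative cells ATF4 targets summed to 4517 and 4637 CPM, against 4510 and 3984 CPM in dividing ones. Mesenchymal genes summed to 14647 and 14165 CPM, against 11369 and 11235 CPM, and hypoxia genes were also higher there. These levels were thus not particular to the dividing cells. Ribosome assembly genes were lower there, at 4095 and 4347 CPM, against 5187 and 5288 CPM.

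Levels of cell cycle genes in these sets cannot be told apart from how the sets were chosen. The Ptprc-positive cells had medians of 11884.5 UMIs under DFMO and 11633 UMIs under water, below those of the Ptprc-negative cells, so the same sum of 15 UMIs asked for a larger part of their transcripts. The values are given as a description. Of the 26 mitotic regulators, 0 were 2-fold apart in both libraries. Of 44 spindle genes 8 were 2-fold lower and 1 higher, and of 19 histone genes 10 were 2-fold lower. Hmgb2, a chromatin protein, was at 1362 CPM under DFMO and 1220 CPM under water, against 3814 and 2952 CPM. Stmn1, which destabilises microtubules, was at 646 and 625 CPM, against 2113 and 1762 CPM. Ass1, argininosuccinate synthase of the urea cycle, was at 9.92 and 4.39 CPM, against 91.5 and 87.4 CPM.

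**Figure D3:**
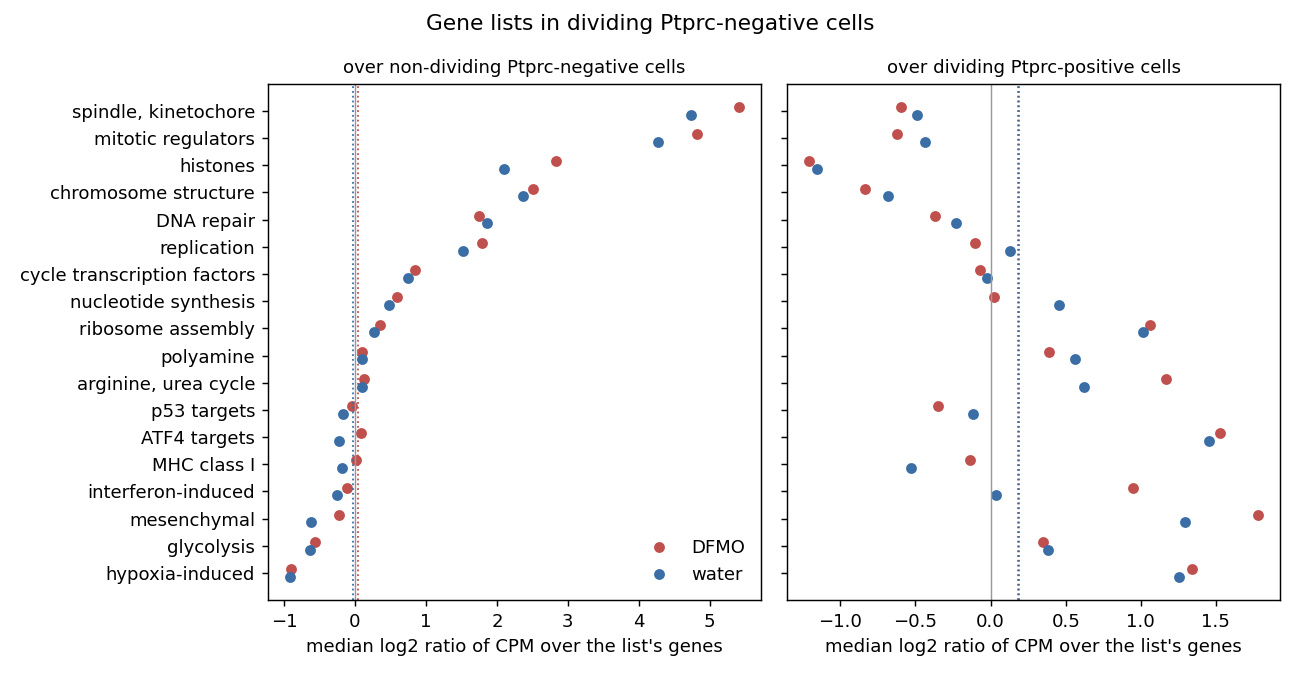
Median log2 ratio of CPM over the genes of each list, for dividing Ptprc-negative over non-dividing Ptprc-negative cells on the left and over dividing Ptprc-positive cells on the right. Red points are DFMO, blue points water, and dotted lines the median of all genes in each library; cell cycle lists stand highest on the left and at or below the dotted lines on the right, where the Ptprc-positive cells were shallower but met the same sum, and stress, hypoxia and mesenchymal lists stand above the lines on the right.

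1 gene of the spindle list did not follow the others and was picked out after its values were seen. Arl6ip1 (chr7:118118891-118129662), which shapes tubular endoplasmic reticulum and is usually among the transcripts high in G2 and mitosis, had 15.1 CPM in DFMO and 7.85 CPM in water dividing Ptprc-negative cells. It was seen in 7 and 14 cells, and 1 cell held 60.5% and 45.6% of the UMIs. Non-dividing Ptprc-negative cells had 12.1 and 6.67 CPM. Dividing Ptprc-positive cells had 1642 and 1451 CPM, and non-dividing Ptprc-positive cells 393 and 330 CPM. Ptprc-negative cells rich in the matrix genes (at least 10 UMIs, 65 DFMO and 423 water cells) also had little, 2.31 and 4.11 CPM. Other genes of chromosome 7 were measured in the dividing cells, such as Smg1 at 44.9 and 31.5 CPM and Coq7 at 75 and 65.5 CPM.

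Levels relative to dividing Ptprc-positive cells also varied by chromosome. Over all 9089 genes the median log2 ratio was 0.20 under DFMO and 0.21 under water, and 58.1% and 60.3% of genes were higher in Ptprc-negative cells. On chromosome 15 the medians were 0.55 and 0.52, with 72.3% and 79.1% of genes higher. On chromosome 10 they were 0.60 and 0.49, with 72.5% and 73.9% higher. Leaving out the Y chromosome with its 2 measured genes, the X lay lowest in both libraries, at -0.15 under DFMO and -0.03 under water. Chromosome 13 had -0.10 and 0.06, chromosome 14 had -0.09 and -0.02, and chromosome 9 had -0.06 and 0.01. The same cells set beside non-dividing Ptprc-negative cells had medians of 0.09 and 0.01 on chromosome 15 and of 0.08 and -0.02 on chromosome 10. These are descriptions, over different genes on each chromosome.

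DFMO dividing cells were then compared with water dividing cells. Of 8150 genes with at least 100 UMIs, 76 (0.933%) differed at least 2-fold. Of these, 50 (0.613%) were higher in DFMO cells and 26 (0.319%) lower. With TMM library sizes in place of totals, which moved the median log2 ratio of all genes from 0.09 by -0.14, 28 were 2-fold higher and 35 lower, so the balance of directions rests on the scaling. Lists are given by their median over genes with at least 30 UMIs. Over all 10186 such genes the median was 0.09, 61.5% of genes were higher under DFMO, 1.49% at least 2-fold higher and 0.962% at least 2-fold lower. This median was 0.20 for genes of 30 to 99 UMIs and -0.04 for genes of 1000 or more.

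Histone transcripts were higher under DFMO. The median of 21 replication-dependent histone genes was 0.74 on the log2 scale, 20 of 21 were higher and 8 were at least 2-fold higher. The list summed to 2447 CPM in DFMO cells and 1543 CPM in water cells. Hist1h2ap (chr13:21833026-21833507), an H2A gene, was at 845 CPM under DFMO and 333 CPM under water, seen in 93 of 115 and 316 of 409 cells, a log2 ratio of 1.34 (1.26 to 1.43). Hist1h2ab, another H2A gene, was at 56.8 and 19.98 CPM (log2 ratio 1.51) and Hist2h2ac at 40.5 and 14.3 CPM (1.5). Hist1h1e, a linker histone, was at 374 and 233 CPM (0.68). The histone gene lower under DFMO was Hist1h4i, at 219 and 314 CPM (-0.52).

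The higher level was not shared evenly by cells. In cells thinned to 5000 UMIs the median was 8 histone UMIs under DFMO and 6 under water, while the upper quartiles were 18.5 and 11 and the 90th percentiles 33.6 and 18.2 UMIs. The variant H2afz, which is not tied to replication, was at 1993 and 2672 CPM (-0.42). Replication genes as a list were near the median of all genes, at 0.17 with 36 of 53 higher. Dividing Ptprc-positive cells had a histone median of 0.59, with Hist1h2ap at 2096 CPM under DFMO and 765 CPM under water. Non-dividing Ptprc-negative cells had 0.25, with 11 of 17 genes higher. Their histone sum was level, at 416 CPM under DFMO and 408 CPM under water. Most histone transcripts lack a poly(A) tail, so these levels are those of the captured transcripts, and near-identical copies share reads, so values of single histone genes are uncertain.

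Interferon-induced genes were higher under DFMO. The median of 32 genes was 0.58, and 31 of the 32 were higher. The 4 that were at least 2-fold higher were Cxcl9, Rsad2, Cd274 and Gbp5. Rsad2 had 114 CPM in DFMO and 49.7 CPM in water dividing cells, seen in 46 of 115 and 125 of 409 cells (log2 ratio 1.20, 0.98 to 1.42). Its ratio was 0.44 at a threshold of 30 UMIs and 0.59 in cells chosen after thinning. Cxcl9, a chemokine that draws T cells, was at 108 and 36.1 CPM, but 1 DFMO cell held 50.9% of its UMIs there. Cd274, the checkpoint ligand PD-L1, was at 31.8 and 14.9 CPM (1.09, 0.67 to 1.51). Gbp2, a guanylate-binding GTPase, was at 413 and 228 CPM (0.85).

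The most abundant interferon genes differed little. Isg15, a ubiquitin-like protein, was at 1153 CPM under DFMO and 1103 CPM under water (0.06), Cxcl10 at 713 and 672 CPM (0.08), and Bst2, tetherin, at 2199 and 1934 CPM (0.19). The whole list summed to 8032 and 6291 CPM, and its thinned median per cell was 36 UMIs under DFMO and 25 UMIs under water. Outside the list, Tgtp1 was at 57.9 and 20.4 CPM (1.5), though reads of its near-identical copy Tgtp2 may be split with it. Without the 17 cells with other-lineage RNA the interferon median was 0.60 and 32 of 32 genes were higher.

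MHC class I genes, which interferon also induces, had a median of 0.40, and 16 of 17 were higher under DFMO. H2-K1, a classical class I chain, was at 2232 CPM under DFMO and 1687 CPM under water (0.40). B2m, the shared light chain, was at 3632 and 3116 CPM (0.22), and Nlrc5, the transactivator of the class, at 32.9 and 20.2 CPM (0.71). H2-T23, the mouse Qa-1 chain, was the 1 gene at least 2-fold higher, at 64.7 and 30.02 CPM. Near-identical class I genes share reads, so their single values are uncertain. The medians of histone, interferon and MHC class I genes stayed positive with TMM sizes, at 0.60, 0.44 and 0.26.

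The same direction held in non-dividing Ptprc-negative cells for interferon genes, with a median of 0.49 and 29 of 32 higher under DFMO, beside 53.4% of all 10668 genes. MHC class I genes had 0.13 there, with 14 of 17 higher. In these non-dividing cells the 31 leukocyte markers summed to 691 CPM under DFMO and 237 CPM under water. Their ratios of DFMO over water were not recomputed without cells with other-lineage RNA. In dividing Ptprc-positive cells the interferon median was -0.44, with 8 of 32 higher, and the MHC class I median -0.12, with 5 of 17 higher, beside 58.1% of all 8074 genes. Rsad2 was at 23.3 CPM under DFMO and 54.5 CPM under water in those cells, and at 231 and 94.8 CPM in non-dividing Ptprc-negative cells. These differences between cell sets were not tested, since each rests on the same 2 libraries. The dividing Ptprc-positive cells were also of mixed lineages. Their macrophage and monocyte markers summed to 1412 CPM under DFMO and 4227 CPM under water, and their dendritic markers to 6637 and 11663 CPM. Markers of T cells summed to 3501 and 2439 CPM, of B cells to 399 and 34.6 CPM, and of NK cells to 1536 and 1800 CPM. The part of this makeup in the ratios was not tested.

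**Figure D4:**
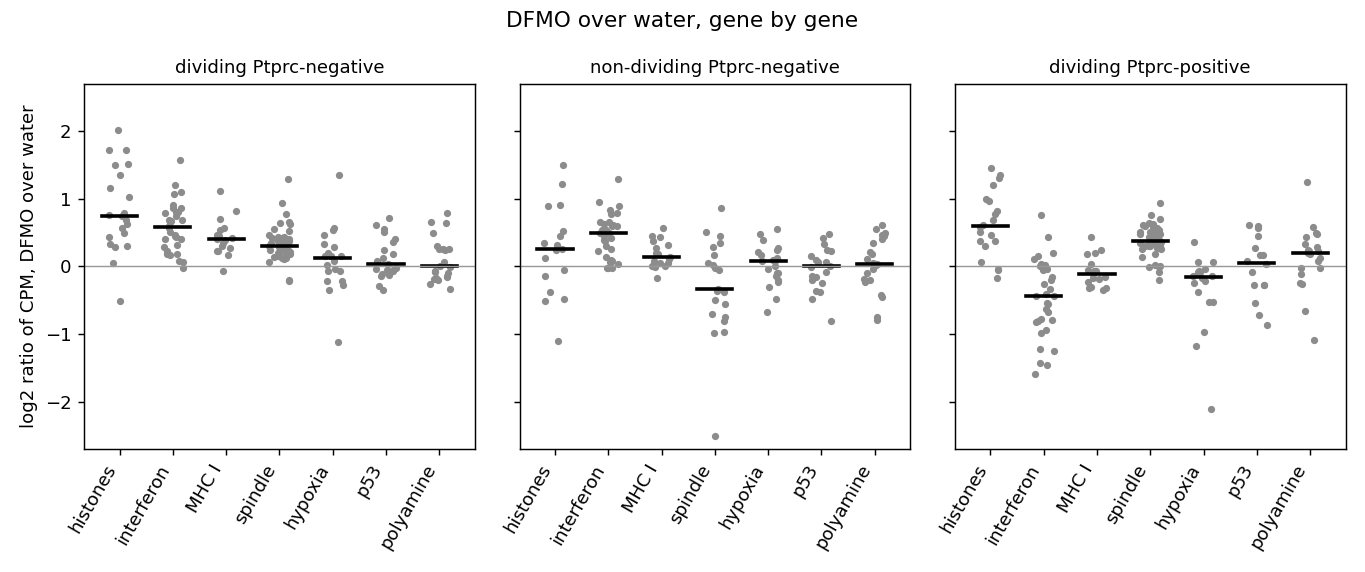
Log2 ratio of CPM, DFMO over water, for each gene of 7 lists (1 point per gene with at least 30 UMIs) in dividing Ptprc-negative, non-dividing Ptprc-negative and dividing Ptprc-positive cells. Black bars are medians; in dividing Ptprc-negative cells they run from 0.74 for histones and 0.58 for interferon genes to -0.00 for polyamine genes, and the interferon bar is at -0.44 in Ptprc-positive cells.

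Mitotic genes differed less between the libraries. Cells of both libraries had to reach the same minimum sum of the rule's genes. Cdk1, Prc1 and Nusap1 were among the genes that followed this sum most closely. The part of this choice in the likeness of mitotic levels was not tested, so their ratios are a description. Of 44 spindle and kinetochore genes 42 were higher under DFMO with a median of 0.29, which was 0.15 with TMM sizes. Ect2, the exchange factor that starts cytokinesis, was at 52.8 CPM under DFMO and 30.8 CPM under water (0.78, 0.46 to 1.08). Anln, anillin of the contractile ring, was at 250 and 160 CPM (0.65). The spindle gene at least 2-fold higher was Psrc1, on 15 and 21 UMIs. Among the 26 mitotic regulators the median was 0.11, and -0.03 with TMM sizes, so this list had no fixed direction. Ttk, the checkpoint kinase MPS1, was at 24.6 and 14.3 CPM (0.78) and Bub1b, a checkpoint protein, at 89.3 and 55.0 CPM (0.70). Birc5, survivin, was at 572 and 616 CPM (-0.11) and Cdk1 at 378 and 403 CPM (-0.09).

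The polyamine list had no direction between the libraries. Its median was -0.00, with 11 genes higher and 11 lower, and -0.15 with TMM sizes. Odc1 had a log2 ratio of 0.06 (-0.09 to 0.20), and it was seen in 101 of 115 DFMO and 360 of 409 water cells. Atp13a3, a transporter of polyamines from endosomes, was the highest of the list's genes with at least 100 UMIs, at 79.8 CPM under DFMO and 51.4 CPM under water (0.63, 0.39 to 0.88). Amd1, which makes the aminopropyl donor for spermidine, was at 70.7 and 57.3 CPM (0.30), but its ratio turned to -0.058 at a threshold of 30 UMIs and to -0.33 in cells chosen after thinning. Sat1, which acetylates polyamines for export, was at 113 and 142 CPM (-0.33, -0.53 to -0.15), Srm had -0.20 and Eif5a, the factor modified with spermidine, was at 2239 and 2521 CPM (-0.17). The list summed to 5842 and 6272 CPM.

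Few urea cycle transcripts were found. Arg1, arginase 1, had 2 UMIs in DFMO dividing cells and none in water dividing cells. Ass1 had 25 UMIs in 11 DFMO cells and 38 UMIs in 15 water cells, a log2 ratio of 1.18 (0.39 to 1.94). Of the 17 genes of the list 13 were higher under DFMO, with a median of 0.20 that turned to -0.13 in cells chosen after thinning, and Ass1 was the 1 gene at least 2-fold apart. Slc7a1, the main arginine importer, was at 56.4 CPM under DFMO and 31.3 CPM under water (0.85, 0.55 to 1.15), but its ratio turned to -0.94 in cells chosen after thinning. Gamt, which makes creatine, was at 37.7 and 65.6 CPM (-0.80, -1.13 to -0.48), and Gatm, the enzyme before it, at 112 and 92.4 CPM (0.28). Oat, which links ornithine to proline and glutamate, was at 92.9 and 90.2 CPM (0.04).

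Hypoxia genes had no fixed direction between the libraries. Their median was 0.12, with 12 of 20 genes higher, but -0.02 with TMM sizes, -0.17 at a threshold of 30 UMIs and -0.46 in cells chosen after thinning. Pfkfb4, on 17 and 23 UMIs, was at least 2-fold higher under DFMO and Car9 at least 2-fold lower. The glycolysis median was 0.09, equal to that of all genes, though Gapdh was at 8641 CPM under DFMO and 6352 CPM under water (0.44). Targets of p53 had 0.04, with 11 of 21 higher.

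**Figure D5:**
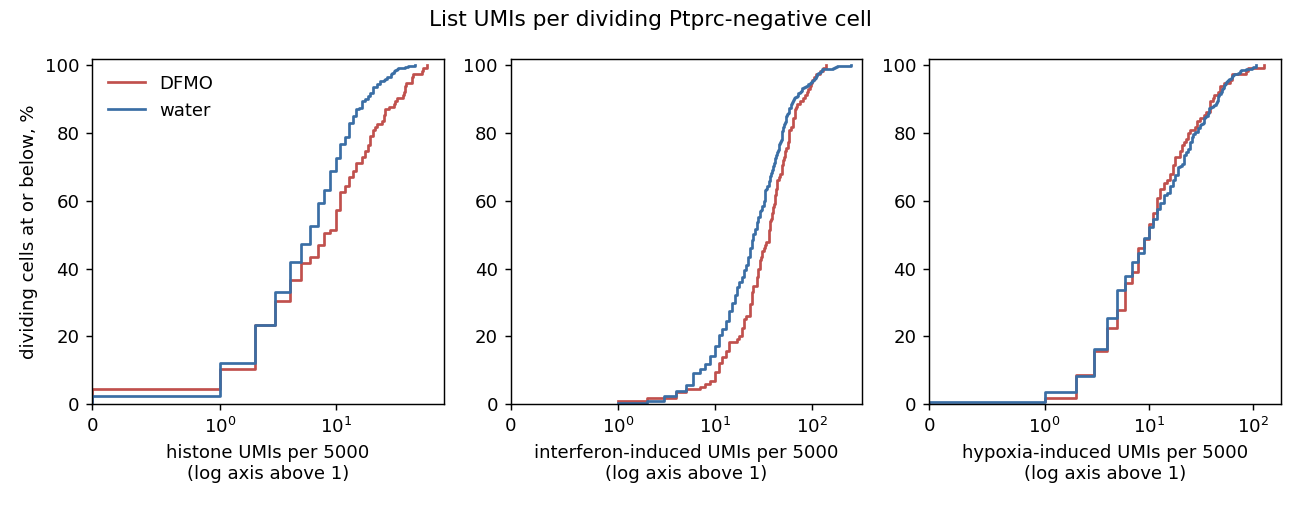
Cumulative percentage of dividing cells with at most the given number of histone, interferon-induced or hypoxia-induced UMIs after thinning to 5000 UMIs per cell (x axes linear to 1, then logarithmic). Red lines are 115 DFMO cells and blue lines 409 water cells; the lines part in the upper part of the histone panel and along the interferon panel (medians 36 and 25 UMIs) and lie close in the hypoxia panel (10 and 10).

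Among the 10 genes that stood highest under DFMO were Cd74 (196 CPM under DFMO and 25.6 CPM under water) and H2-Aa (55.2 and 11.4 CPM), the MHC class II genes of dendritic and B cells. A single DFMO cell held 51.7% of the Cd74 UMIs, and the ratio of 2.93 was 1.22 without the cells with other-lineage RNA. In cells chosen after thinning the ratio of H2-Aa turned to -1.57. Prl2c2, a proliferin hormone gene, was at 75 and 26.1 CPM, with 75.1% of its DFMO UMIs in 1 cell, and its ratio turned to -2.55 in cells chosen after thinning. Cryab, a small heat shock protein, was at 67.5 and 25.9 CPM, with 38.8% in 1 cell. Trp53i11, known as a p53-induced gene, was at 124 and 52.2 CPM (1.25, 1.03 to 1.46) and seen in 44 and 116 cells. The others of the 10 were Cxcl9, Hist1h2ab, Tgtp1, Hist1h2ap and Rsad2.

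Hbb-bs, a haemoglobin chain, stood lowest, at 0.794 CPM under DFMO and 110 CPM under water, where 1 cell held 99.3% of it. Apart from it and the pseudogene Ftl1-ps1, the lowest was Gclm, the regulatory subunit of the enzyme that limits glutathione synthesis. Gclm was at 115 CPM in 98 DFMO cells and 278 CPM in 396 water cells (-1.27, -1.45 to -1.10). It was also lower under DFMO in non-dividing Ptprc-negative cells, at 98.7 and 222 CPM. Lbh was at 31.4 and 70.6 CPM (-1.17), Ier3 at 107 and 194 CPM (-0.85), Dusp1 at 28.6 and 52.7 CPM (-0.88) and Csrp2, a LIM protein of the cytoskeleton, at 598 and 1030 CPM (-0.78). The remaining ones were Gamt, Gm9493 and Tex101.

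Some abundant transcripts that are often read beside RNA quality were higher under DFMO in all 3 cell sets. Gm42418 and AY036118 are loci that overlap ribosomal RNA sequence, and Lars2 is a mitochondrial tRNA synthetase gene. Gm42418 had 5789 CPM in DFMO and 2688 CPM in water dividing cells (1.11), AY036118 at 951 and 440 CPM (1.11) and Lars2 at 875 and 413 CPM (1.08). Gm42418 was also higher under DFMO in non-dividing Ptprc-negative cells, at 6714 and 4484 CPM, and in dividing Ptprc-positive cells, at 3697 and 2550 CPM. Such differences stand beside every ratio of the libraries given here, and their part in it was not tested. Genes of the mitochondrial genome and of ribosomal proteins were not in the matrix, so the usual measures of RNA quality were not analysed here.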

How the data were processed

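Raw UMI counts were deposited by the authors as a matrix (10720 cells, 17775 genes) with a cell table that names each cell's library. Cell Ranger 3.02, Scanpy 1.4.4 and mm10 are named in the submitters' processing notes. What cells were dropped earlier is not stated there. The authors' gene table has mean counts as a signal value, taken over more cells than the matrix, and was not used for values. The cell table names its libraries DFMO and Control, and Control was taken as the water group. Gavage is described as daily in one label and as more frequent in another.

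Counts were summed per library and cell set and scaled to CPM, with exact Poisson, binomial and Clopper-Pearson 95% intervals (scipy 1.17.1, numpy 2.4.6, pandas 2.3.3, Python 3.11.15). They cover counting error only. Thinning drew 5000 UMIs per cell. Doublets were called with Scrublet in scanpy 1.11.5, and TMM sizes came from edgeR 4.0.16. The ratio and its interval were checked on simulated data. The members and gene lists were chosen with earlier results of these data known. Genes were named as the rule and gate genes, the 10 genes at each end of the ratios (100 UMIs or more, 50 CPM in 1 library, no receptor segments), the 4 most abundant members of each list with the 2 furthest from 0, Odc1, Arg1, Ass1, and the 10 genes closest to the summed rule genes; others, among them Arl6ip1, Ect2, Anln, Cd274, Gbp5, Psrc1, Pfkfb4, Nlrc5, Mcm5 and Pcna, and the 10 genes each way against dividing Ptprc-positive cells were taken after their values were seen. Promoters came from RefSeq (GRCm38.p6), gene coordinates from GENCODE M21 on GRCm38. RefSeq matched 61 of 74 mitotic and spindle genes, 27 of 33 interferon genes and 18 of 21 hypoxia genes.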

Additional observations from a re-analysis of the deposited data

Results flagged for a closer look

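Interferon-induced genes moved in opposite directions in the 2 sets of dividing cells of the same libraries. On the log2 scale, the list's median of DFMO over water stood at 0.58 over 32 genes in dividing Ptprc-negative cells, where 31 genes were higher under DFMO, and -0.44 over 32 genes in dividing Ptprc-positive cells, where 8 were higher. With 1 library per group, the difference between the sets was not tested. The Ptprc-positive set held leukocytes of several lineages, whose marker levels differed between the libraries, and the part of this in its median was not tested.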

How the results depend on the processing

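No paired analysis was possible because DFMO and water had 1 library each. Across the settings, list medians of DFMO over water stayed within the median counting interval of the list's genes in 272 cases and left it in 8. List medians of dividing over non-dividing cells stayed in 470 cases, left it in 46 and, with an interval that had excluded 0, reversed in 4. Ratios of named genes stayed within their interval in 394 cases, left it in 121 and reversed in 16. The setting without called doublets removed no dividing cell. Its cases of DFMO over water, for lists and named genes, were therefore bound to stay and say nothing on stability. Lists whose interval held 0 are not counted as reversed. Among those that left it, 3 medians of DFMO over water (hypoxia at 2 settings and ATF4 targets) and 5 of dividing over non-dividing cells (polyamine genes in both libraries, ATF4 targets, and interferon genes at 2 settings) turned sign, and others turned sign within it, as mitotic regulators did with TMM sizes. The exceptions follow, with log2 values. Depth limits the share most. A threshold of 10 UMIs gave shares of 35.3% (DFMO) and 32.9% (water), 30 UMIs gave 14.7% and 15.2%, at least 10000 UMIs per cell gave 30.7% in water, and choosing cells after thinning gave 6.64% and 7.07%. The 50 genes 2-fold higher under DFMO were 28 with TMM sizes, 27 with all gates at 0 UMIs and 32 in cells chosen after thinning. With a gene minimum of 10 UMIs in place of 100 they were 381, with 303 lower, and with none 1344, with 2047 lower.

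For DFMO over water, the rule's genes had 0.12 and MHC class I genes 0.26 with TMM sizes. The sum of the rule's genes chose the cells, so their ratios are a description. At a threshold of 30 UMIs the rule's genes had 0.40, hypoxia genes -0.17 and MHC class I genes 0.53. In cells chosen after thinning, 28 under DFMO and 110 under water, the rule's genes had 0.46, hypoxia genes -0.46 and ATF4 targets -0.31. Cxcl10 had -0.058 and Isg15 -0.078 with TMM sizes, Cxcl10 -0.12 with each cell weighted alike, and Isg15 -0.033 with gates at 0. Amd1 had -0.058 at a threshold of 30. Arl6ip1 had -1.79 at a threshold of 30, -1.10 at 10000 UMIs, -0.71 with gates at 0 and -0.52 without cells with other-lineage RNA, where Hbb-bs had 0.22. In cells chosen after thinning Amd1 had -0.33, Birc5 0.029, H2-Aa -1.57, Hbb-bs 0.43, Prl2c2 -2.55 and Slc7a1 -0.94. The cause was not tested. Relative to genes of like UMIs, which was chosen after seeing the data like the setting without other-lineage RNA, the histone median was 0.60, interferon 0.49 and MHC class I 0.45.

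For dividing over non-dividing cells, glycolysis in water cells was -0.72 with TMM sizes and -0.69 at 10000 UMIs. It was -0.48 (DFMO) and -0.48 (water) with both sets thinned, where G1 genes in water had 0.49, and -0.46 and -0.51 with each cell weighted alike. At a threshold of 30 UMIs the rule's genes had 6.48 in water and hypoxia genes -1.15 in DFMO. With gates at 0, interferon genes had 0.14 and MHC class I genes 0.16 in DFMO. With a gene minimum of 10 UMIs cycle transcription factors had 0.85 in water.

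In cells chosen after thinning, the rule's genes had 5.03 (DFMO) and 4.81 (water), mitotic regulators 3.65 and 3.38, spindle genes 4.05 and 3.83, chromosome structure 2.01 and 1.78, replication 0.46 and 0.54, nucleotide synthesis -0.13 and -0.054, polyamine genes -0.26 and -0.21, glycolysis -0.48 and -0.43 and ribosome assembly -0.23 and -0.064. There DNA repair had 1.39 and hypoxia -0.53 in water, and ATF4 targets -0.45 and interferon genes 0.11 in DFMO. The non-dividing cells were rechosen after thinning in this setting too, so its values mix a change of both sides. Against all gated cells with a sum under 15, which takes in the intermediate cells, the rule's genes had 3.67 and 3.53, mitotic regulators 2.82 and 2.68, spindle genes 3.14 and 2.84, chromosome structure 1.88 and 1.65, replication 1.01 and 0.74, and glycolysis -0.42 and -0.46. DNA repair had 1.21, nucleotide synthesis 0.27, hypoxia -0.68 and ribosome assembly 0.10 there in water.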
